A study of Mus musculus with 6 samples.

Results

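Genes for carriers of amino acids and of amino acid neurotransmitters were followed in mouse neural stem progenitor cells given PTN or PBS. Members were the rows of the deposited gene table whose symbol belongs to the solute carrier families Slc1, Slc6, Slc7, Slc36, Slc38 or Slc43, to the heavy chains Slc3a1 and Slc3a2, or to the vesicular carriers Slc17a6, Slc17a7, Slc17a8 and Slc32a1. This gave 67 of the 22322 genes in the table. The cells are wild type, and RNA was taken 24 h after treatment, with 3 libraries from cells given PTN and 3 Control libraries from cells given PBS. The labels give PTN as an abbreviation only, read here as pleiotrophin, and the sources used here do not give its amount. The series title places the treatment in conditioned medium, and the labels do not say whether replicates came from separate cultures or animals. The p-values therefore rest on the variation among these 6 libraries, part or all of which may be technical.

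Neurons and glia do not break down glutamate or GABA outside the cell but take them up through carriers of the Slc1 and Slc6 families, which draw on the sodium gradient. In brain, astrocytes do most of the glutamate uptake, convert glutamate to glutamine and release it through carriers of the Slc38 family, from which neurons rebuild both transmitters. Some Slc7 proteins pair with an Slc3 protein as exchangers that bring in, among others, large neutral amino acids or cystine. Other Slc7 proteins carry arginine and lysine. The Slc17 and Slc32 proteins followed here fill synaptic vesicles.

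Totals ran from 19267765 to 26341733 counts per library. All 12 markers of neural stem and progenitor cells passed the filter on low counts, and summed to 6112 to 6957 CPM, counts scaled to library size, in Control and 8245 to 9406 CPM in PTN libraries. The single markers did not all go with this sum, since the test described below called 2 higher, 1 lower and 9 neither. The 12 astrocyte markers also passed the filter, and summed to 10710 to 11770 CPM in Control libraries but to 4453, 10260 and 5656 CPM in PTN 1, PTN 2 and PTN 3. Of these, 3 were called lower and 9 neither, with a median log2 fold change of -0.18. A sum of CPM is weighted toward the most abundant markers. The 10 microglial markers summed to 2.15 to 4.28 CPM in Control and 3.10 to 3.34 CPM in PTN libraries. Only 1 of them was tested, and it was not called. In bulk libraries such as these, fewer cells of a type and less RNA per cell cannot be told apart.

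A count of 10 or more in 3 libraries was reached by 39 members, and 38 of them passed edgeR's filter and were tested. The exception was Slc1a6, with 6 to 11 counts per library. Another 13 members were at 0 counts in all 6 libraries. Of the 38 tested members, 4 were lower after PTN (Slc6a13, Slc38a3, Slc1a1 and Slc6a11) and 2 higher (Slc6a6 and Slc17a7) by the quasi-likelihood test of edgeR, with calls made where the adjusted p was under 0.05. In the same fit 7.99% of all 13161 tested genes were called, 3.06% lower and 4.93% higher, against 15.8% of the tested members, 10.5% lower and 5.26% higher. The share higher therefore lies near the background. The median log2 fold change was -0.17 over the tested members and 0.03 over all tested genes. PTN values lay wholly below the Control values in 7 members and wholly above in 6, or 18.4% and 15.8%, where 17.1% and 15.7% of all tested genes did so. These shares too lie near the background, and what follows is about single genes. The called genes have the identifiers ENSMUSG00000030108 (Slc6a13), ENSMUSG00000010064 (Slc38a3), ENSMUSG00000024935 (Slc1a1), ENSMUSG00000030307 (Slc6a11), ENSMUSG00000030096 (Slc6a6) and ENSMUSG00000070570 (Slc17a7) in the table.

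**Figure D1:**
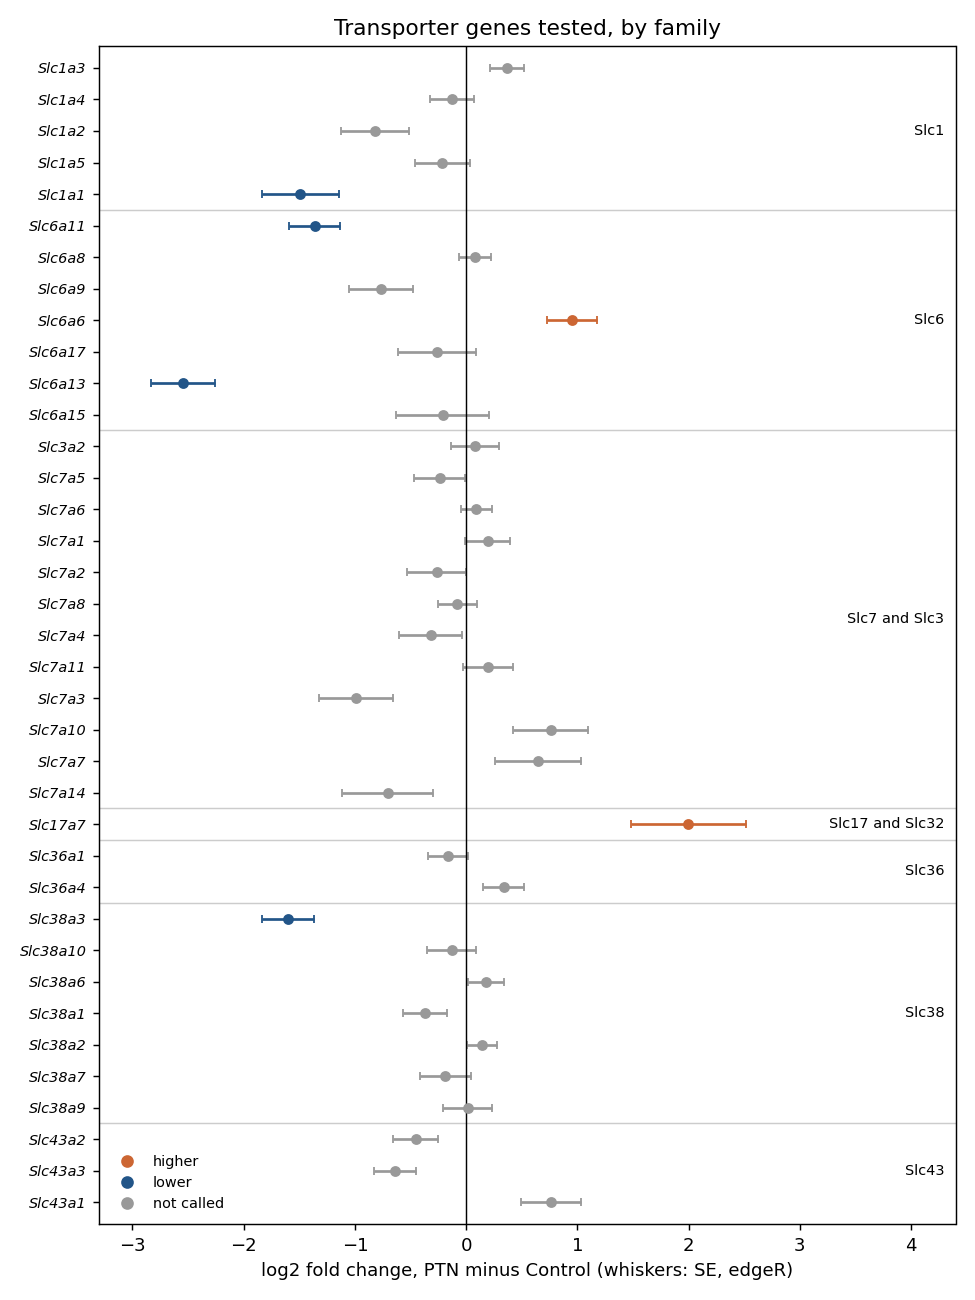
Log2 fold change (PTN minus Control) of 37 of the 38 tested members with its standard error from edgeR, ordered by family and, within it, by the Control FPKM level. Genes called higher or lower at an adjusted p under 0.05 are coloured. The 4 genes called lower sit between -2.55 and -1.36. No member of the Slc7 and Slc3 group is called, where 7.99% of all tested genes are.

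In the Slc1 family, which holds the glutamate carriers, 1 of 5 tested genes fell by edgeR, Slc1a1, where 3.06% of all tested genes fell. Slc1a3, which encodes the glial glutamate carrier GLAST, was the most abundant member per length, at 401 ± 36.8 FPKM in Control and 516 ± 22.2 FPKM in PTN libraries (SD, n = 3 each). Its CPM values were 1482, 1762 and 1752 in Control 1, Control 2 and Control 3, and 2059, 2217 and 2172 in PTN 1, PTN 2 and PTN 3. All PTN values lay above all Control values, but the gene was not called (edgeR log2 fold change 0.37 ± 0.15 SE, adjusted p = 0.165).

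Slc1a2 encodes the other main glial glutamate carrier, which is typical of mature astrocytes. It was at 620, 863 and 820 CPM in the 3 Control libraries and at 314, 675 and 314 CPM in PTN 1, PTN 2 and PTN 3. PTN 1 and PTN 3 were below every Control library, while PTN 2 lay inside the Control range. The difference of 1.77-fold was not called (edgeR log2 fold change -0.82 ± 0.31 SE, adjusted p = 0.133). Without PTN 2, the PTN library nearest to Control, it was 2.44-fold lower (edgeR adjusted p = 0.00951). Leaving out any other single library gave no call (edgeR adjusted p from 0.155 to 0.33). With all libraries, Slc1a2 also passed with DESeq2's Wald test (adjusted p = 0.0461) and with a trend on gene length removed (edgeR adjusted p = 0.0402). The astrocyte markers summed to a value close to Control in that same library, PTN 2, and their part in the Slc1a2 values was not tested.

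Within each library the 2 glial carriers can be set against each other by the ratio of their FPKM, a comparison chosen after the values were seen. Slc1a3 to Slc1a2 stood at 5.95, 5.41 and 5.52 in the Control libraries and at 17.7, 8.89 and 18.5 in PTN 1, PTN 2 and PTN 3. Every PTN library had a larger ratio than every Control library, PTN 2 included. Slc1a3 alone already separated the groups, so the ratio is no further support for a change in Slc1a2. The exact two-sided permutation test gave p = 0.1, the smallest that 3 against 3 allows.

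Slc1a1, the glutamate carrier best known from neurons, which also carries cysteine, fell. It was at 12.8, 12.7 and 11.6 CPM in the Control libraries and at 3.65, 7.09 and 2.39 CPM in PTN 1, PTN 2 and PTN 3. The groups did not overlap, and PTN 2 was again the PTN library nearest to Control. The fall was 2.81-fold (edgeR log2 fold change -1.49 ± 0.35 SE, adjusted p = 0.0353). Some of its deposited counts were fractional. Leaving out PTN 1 or any single Control library gave an edgeR adjusted p of 0.0901 to 0.118, and leaving out PTN 2 a fall of 4.05-fold. The 250 bases before its start in RefSeq's GRCm38.p6 set (chr19:28834885-28835134, plus strand) are shown because the gene fell, with the GC box GGGCGG, read on either strand, in capitals.
Slc1a1: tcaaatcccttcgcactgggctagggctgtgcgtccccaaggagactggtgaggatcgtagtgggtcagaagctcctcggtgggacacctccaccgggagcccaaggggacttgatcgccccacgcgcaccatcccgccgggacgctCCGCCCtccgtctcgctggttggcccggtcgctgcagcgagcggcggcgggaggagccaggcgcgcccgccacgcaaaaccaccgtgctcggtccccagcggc
This stretch is 70.4% G and C and holds 1 GC box, on the reverse strand.

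Slc1a4 and Slc1a5 encode neutral amino acid exchangers for alanine, serine and cysteine and, in the case of Slc1a5, glutamine. Slc1a4 was among the more abundant members, at 84.5 ± 9.70 FPKM in Control and 77.3 ± 19.6 FPKM in PTN libraries (SD, n = 3 each). Its CPM values were 358, 290 and 344 in Control and 251, 268 and 391 in PTN libraries, and the groups overlapped (edgeR log2 fold change -0.12 ± 0.20 SE, adjusted p = 0.695). Slc1a5 was at 15.8, 12.6 and 16.2 CPM in Control and 12.1, 9.05 and 17.4 CPM in PTN libraries, again with overlap (edgeR log2 fold change -0.21 ± 0.25 SE, adjusted p = 0.586). Slc1a7, a retinal glutamate carrier gene, was at 0 in all libraries.

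**Figure D2:**
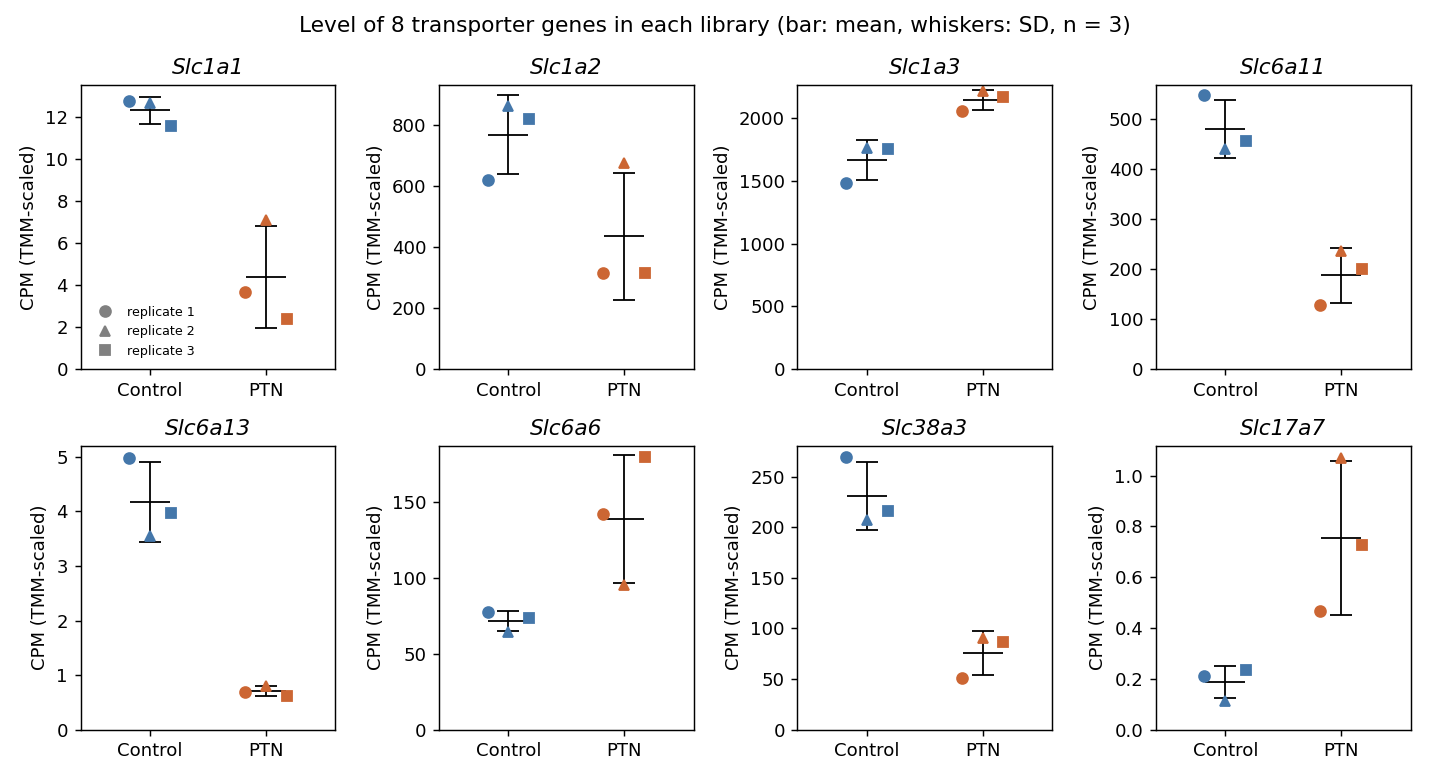
TMM-scaled CPM of 8 transporter genes in each library, with the mean (bar) and SD (whiskers) of each group of 3. In the 6 called genes the groups do not overlap. For Slc1a2 the PTN 2 triangle, at 675 CPM, lies within the Control range.

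In the Slc6 family, which holds the carriers of GABA, 2 of 8 tested genes fell and 1 rose. Over all tested genes 3.06% fell and 4.93% rose. Slc6a11, a GABA carrier of astrocytes, fell 2.57-fold. It was at 548, 441 and 456 CPM in the Control libraries and at 127, 235 and 199 CPM in the PTN libraries. The highest PTN value was well below the lowest Control value (edgeR log2 fold change -1.36 ± 0.23 SE, adjusted p = 0.0104). The call was kept in every refit that left out 1 library.

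Slc6a13, a GABA and taurine carrier known from meninges, liver and kidney, fell the most of the members. It was low, at 4.99, 3.55 and 3.98 CPM in Control and 0.698, 0.803 and 0.624 CPM in PTN libraries, which stands for 85 to 118 and 12 to 18 counts. The fall was 5.84-fold, with PTN values close to each other (edgeR log2 fold change -2.55 ± 0.29 SE, adjusted p = 0.00313), and was called without each library in turn. Markers of fibroblasts and meninges summed to 39.5 to 47.6 CPM in Control and 35.4 to 41 CPM in PTN libraries. Of the 7 tested, 2 fell (Col3a1 and Pdgfrb) and 1 rose (Foxc1), where 3.06% of all tested genes fell and 4.93% rose. Col3a1 was not called without Control 1, Control 3, PTN 1 or PTN 2 (edgeR adjusted p from 0.0765 to 0.134), nor Foxc1 without PTN 1 or any Control library (0.0673 to 0.0842). Markers of endothelial and mural cells, which cover and line blood vessels, did differ in their sum, at 65.3 to 73.0 CPM in Control and 20.7 to 39.2 CPM in PTN libraries with no overlap. Of the 6 tested there, 2 fell, namely Acta2, a smooth muscle actin gene, by 4.95-fold and Pdgfrb, a receptor gene of pericytes that is in both lists, by 5.62-fold (edgeR adjusted p = 0.00649 and 0.00187), and 0 rose, with 1 higher at an unadjusted p under 0.05 and 1 higher by DESeq2 (Kdr). The endothelial marker gene Cldn5 had 1 to 5 counts in Control and 0 to 1 in PTN libraries. The part of such cells in the Slc6a13 values was not tested.

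Slc6a12, a betaine and GABA carrier gene next to Slc6a13 in RefSeq's order of protein-coding genes, had 0 to 5 counts per library and was not tested.

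The 250 bases before the starts of the called GABA carrier genes are shown for comparison, Slc6a11 at chr6:114130991-114131240, plus strand, and the first of the 3 RefSeq starts of Slc6a13 at chr6:121300038-121300287, plus strand, with GC boxes in capitals.
Slc6a11: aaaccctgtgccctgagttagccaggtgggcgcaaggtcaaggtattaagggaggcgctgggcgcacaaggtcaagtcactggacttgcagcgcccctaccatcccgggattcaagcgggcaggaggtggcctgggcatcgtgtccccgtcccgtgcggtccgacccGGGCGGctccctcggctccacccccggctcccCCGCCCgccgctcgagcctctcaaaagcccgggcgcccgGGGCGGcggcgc
Slc6a13: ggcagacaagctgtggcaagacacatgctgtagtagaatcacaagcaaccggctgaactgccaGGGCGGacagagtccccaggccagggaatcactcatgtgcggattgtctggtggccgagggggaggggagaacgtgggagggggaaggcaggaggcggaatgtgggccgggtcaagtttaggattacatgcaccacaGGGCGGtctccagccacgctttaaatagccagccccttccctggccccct
The first stretch is 71.2% G and C and holds 3 GC boxes, and the second is 60.8% and holds 2. The 250 bases before the other Slc6a13 starts, not shown, are 51.6% and 49.6% G and C and hold no GC box. GC boxes are common, being found in 35.7% of all 32851 promoter windows of 300 bases and in 36 of the 72 windows of the 49 members that the table holds. The other motifs searched on both strands were the TATA box core TATAAA, the NFI palindrome and the DR4 repeat of thyroid hormone receptors. They occur in 13.6%, 0.0365% and 0.0152% of all windows, and in 6, 0 and 0 of the members' windows. Overlaps between motifs were allowed, and a match is no more than these letters in the window.

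**Figure D3:**
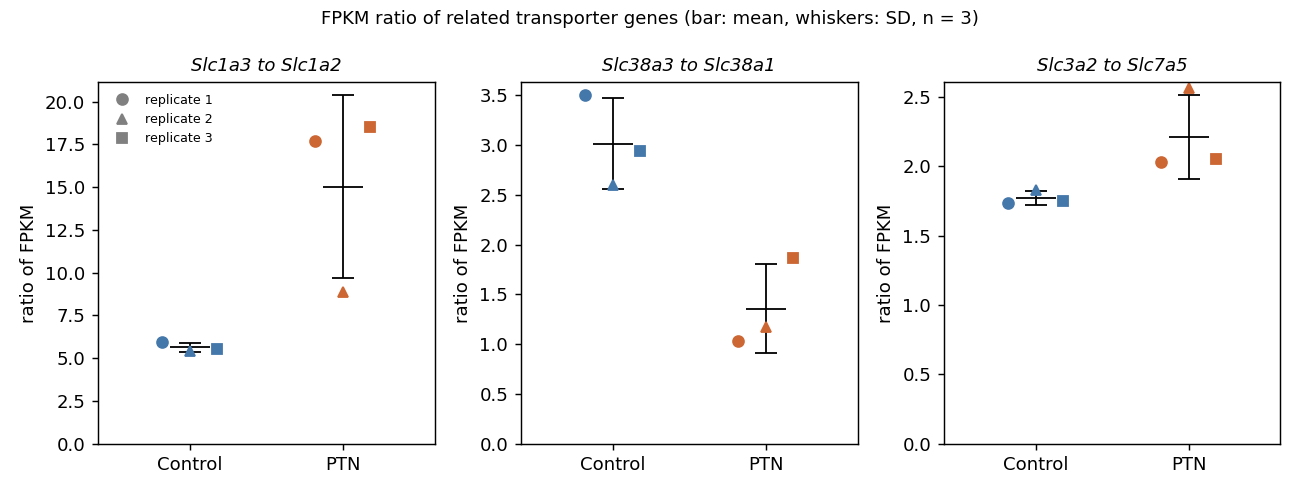
Ratio of FPKM between 2 related transporter genes in each library, with the mean (bar) and SD (whiskers) of each group of 3. PTN libraries lie above the Control libraries for Slc1a3 to Slc1a2 and Slc3a2 to Slc7a5 and below them for Slc38a3 to Slc38a1. The ratios were chosen after the values were seen.

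Slc6a6, the taurine carrier gene, rose. It was at 77.3, 64.6 and 73.8 CPM in Control and at 142, 95.4 and 180 CPM in PTN libraries. Each PTN value was above each Control value, with PTN 2 the nearest. The rise was 1.94-fold (edgeR log2 fold change 0.95 ± 0.22 SE, adjusted p = 0.0368). Leaving out PTN 1 or any single Control library gave an edgeR adjusted p of 0.0994 to 0.131, and removing the trend on gene length gave 0.142.

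Slc6a9 encodes the glycine carrier of glia. Its values of 96.2, 72.7 and 75.0 CPM in Control and 29.1, 70.0 and 44.4 CPM in PTN libraries did not overlap, but PTN 2 nearly touched the Control range. The difference of 1.70-fold was not called (edgeR log2 fold change -0.77 ± 0.29 SE, adjusted p = 0.138), and without PTN 2 it was 2.22-fold lower (edgeR adjusted p = 0.0291). Leaving out any other single library gave no call (edgeR adjusted p from 0.14 to 0.36). Slc6a8, the creatine carrier gene, was level at 119, 102 and 109 CPM in Control and 105, 119 and 123 CPM in PTN libraries (edgeR log2 fold change 0.08 ± 0.14 SE, adjusted p = 0.725).

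Among the remaining tested Slc6 genes were Slc6a17, a synaptic vesicle carrier of neutral amino acids, and Slc6a15, a carrier of branched-chain amino acids and proline. Slc6a17 was at 25.6 to 34.9 CPM in Control libraries and at 27.1, 11.4 and 35.5 CPM in PTN 1, PTN 2 and PTN 3, so that here PTN 2 was the low one (edgeR adjusted p = 0.643). Slc6a15 was at 0.78 to 2.03 CPM over the 6 libraries (edgeR adjusted p = 0.754). The carriers of noradrenaline (Slc6a2), dopamine (Slc6a3) and serotonin (Slc6a4) had at most 5 counts in any library. The neuronal glycine carrier gene Slc6a5 and the proline carrier gene Slc6a7 were at 0 in every library.

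The Slc38 family carries glutamine and other small neutral amino acids. Slc38a3, which encodes the glutamine carrier of astrocytes and liver that can work in both directions, fell 3.03-fold. It was at 270, 207 and 216 CPM in Control and at 51.3, 90.7 and 86.4 CPM in PTN libraries. The highest PTN value, in PTN 2, was far below the lowest Control value, in Control 2 (edgeR log2 fold change -1.60 ± 0.23 SE, adjusted p = 0.0064). The gene was called without each library in turn.

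Slc38a1, the sodium-coupled glutamine carrier gene typical of neurons and progenitors, was at 197, 207 and 190 CPM in Control and at 132, 204 and 124 CPM in PTN libraries. PTN 2 again lay within the Control range and the other PTN libraries below it. It was not called (edgeR log2 fold change -0.37 ± 0.20 SE, adjusted p = 0.262), but without PTN 2 it was 1.54-fold lower (edgeR adjusted p = 0.0366). Leaving out any other single library gave no call (edgeR adjusted p from 0.36 to 0.53). By FPKM, Slc38a3 to Slc38a1 stood at 3.50, 2.60 and 2.94 in Control and at 1.03, 1.18 and 1.87 in PTN libraries, with no overlap (exact two-sided permutation p = 0.1, the smallest possible). This ratio was chosen after the values were seen. Slc38a3 alone already separated the groups, so the ratio is no further support for its fall.

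Slc38a2, the neighbour of Slc38a1 in gene order, encodes a carrier that cells are known to raise when amino acids run short. It was level, at 112, 136 and 127 CPM in Control and 133, 141 and 140 CPM in PTN libraries (edgeR log2 fold change 0.14 ± 0.14 SE, adjusted p = 0.497). Slc38a9, the lysosomal arginine sensor upstream of mTORC1, was at 10.1, 13.1 and 9.36 CPM in Control and 11.8, 12.5 and 8.43 CPM in PTN libraries (edgeR log2 fold change 0.01 ± 0.22 SE, adjusted p = 0.972). Slc38a10, Slc38a6 and Slc38a7 had means of 192, 138 and 27.9 CPM in Control and 175, 157 and 24.5 CPM in PTN libraries, and none was called (edgeR adjusted p from 0.469 to 0.716). Slc38a4, Slc38a5, Slc38a8 and Slc38a11 had at most 4 counts in any library.

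In the Slc7 and Slc3 group 0 of 12 tested members were called by edgeR, where 7.99% of all tested genes were. Of the 12, 1 had an unadjusted p under 0.05, and 6 had a positive and 6 a negative log2 fold change. DESeq2's Wald test also called none of them. Slc3a2, the heavy chain that carries most of the exchangers to the cell surface, was the most abundant at 112 ± 19.1 FPKM in Control and 118 ± 31.4 FPKM in PTN libraries (SD, n = 3 each). Its CPM values were 241, 176 and 187 in Control and 156, 215 and 268 in PTN libraries, spanning the Control range (edgeR log2 fold change 0.08 ± 0.22 SE, adjusted p = 0.828). Its partner Slc7a5, the light chain for leucine and other large neutral amino acids, was at 269, 189 and 211 CPM in Control and 150, 163 and 256 CPM in PTN libraries. There PTN 1 and PTN 2 lay below the Control libraries and PTN 3 among them (edgeR log2 fold change -0.24 ± 0.23 SE, adjusted p = 0.511). By FPKM, Slc3a2 to Slc7a5 stood at 1.74, 1.83 and 1.75 in Control and at 2.03, 2.57 and 2.05 in PTN libraries. This ratio, also chosen after the values were seen, is of 2 genes that were not called. It separated the groups as fully as the others given (exact two-sided permutation p = 0.1, the smallest possible).

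Slc7a11 encodes the light chain of the exchanger that takes up cystine and releases glutamate. It was at 11.3, 17.2 and 13.9 CPM in Control and 12.3, 18.8 and 17.6 CPM in PTN libraries, with overlap (edgeR log2 fold change 0.19 ± 0.23 SE, adjusted p = 0.587). Slc7a11 is known as a gene that ATF4 drives through amino acid response elements, and the 250 bases before its start (chr3:50443614-50443863, minus strand) are shown for that reason, with the element's core TGATGNAA in capitals.
Slc7a11: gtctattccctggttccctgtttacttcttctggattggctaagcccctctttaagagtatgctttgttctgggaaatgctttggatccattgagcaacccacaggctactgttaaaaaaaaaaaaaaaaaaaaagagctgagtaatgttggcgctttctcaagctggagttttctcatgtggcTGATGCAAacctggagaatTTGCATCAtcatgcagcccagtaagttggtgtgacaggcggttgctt
The core occurs here on both strands, beginning 66 and 47 bases before the start. It occurs in 3.97% of all windows and in 5 of the members' 72. The window shows what is present in the sequence and no more.

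Slc7a1, Slc7a2 and Slc7a3 encode carriers of arginine and lysine. Slc7a1 was at 53.1, 40.7 and 51.2 CPM in Control and 55.6, 41.7 and 68.6 CPM in PTN libraries (edgeR log2 fold change 0.19 ± 0.20 SE, adjusted p = 0.544). Slc7a3 was a low gene at 2.28, 1.80 and 2.43 CPM in Control and 0.815, 1.03 and 1.46 CPM in PTN libraries. Its groups did not overlap, and the difference of 1.98-fold was not called (edgeR adjusted p = 0.106, and 0.0455 without PTN 3). Without any other single library the edgeR adjusted p was 0.15 to 0.27. Slc7a2 had means of 40 CPM in Control and 33.2 CPM in PTN libraries (edgeR adjusted p = 0.52).

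Slc7a8 and Slc7a10 are further light chains, for a broad set of neutral amino acids and, for Slc7a10, a carrier of D-serine and glycine. Slc7a8 was at 17.8, 16.2 and 20.7 CPM in Control and 19.4, 15.5 and 16.9 CPM in PTN libraries (edgeR log2 fold change -0.08 ± 0.17 SE, adjusted p = 0.777). Slc7a10 was at 2.49, 1.76 and 1.22 CPM in Control and 2.87, 2.50 and 3.95 CPM in PTN libraries. Its groups did not overlap, but the lowest PTN value and the highest Control value were 2.50 and 2.49 CPM (edgeR log2 fold change 0.76 ± 0.34 SE, adjusted p = 0.188). Slc7a4, Slc7a6, Slc7a7 and Slc7a14 were not called (edgeR adjusted p from 0.289 to 0.687). Slc7a9, Slc7a12, Slc7a13 and Slc7a15 were at 0 in all libraries, and Slc3a1, the heavy chain of kidney and gut, had 0 to 13 counts.

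Slc43 genes encode sodium-independent carriers. Slc43a2, for large neutral amino acids, was the most abundant at 121, 91.2 and 101 CPM in Control and 68.1, 62.7 and 98.4 CPM in PTN libraries. PTN 3 lay within the Control range (edgeR log2 fold change -0.45 ± 0.20 SE, adjusted p = 0.192, and 0.0323 without PTN 3). Without any other single library the edgeR adjusted p was 0.18 to 0.43. Slc43a3, known as a purine carrier, was at 6.09, 5.92 and 6.32 CPM in Control and 4.07, 3.83 and 3.85 CPM in PTN libraries, with little spread in either group. It was 1.56-fold lower in counts and not called (edgeR adjusted p = 0.0773).

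Slc43a3 fell by FPKM. Its FPKM values were 2.82, 3.81 and 3.31 in Control and 1.56, 1.49 and 1.49 in PTN libraries, and limma on log2(FPKM + 0.1) gave an adjusted p = 0.0179. Counts per FPKM unit imply a gene length of 2.17, 1.54 and 1.92 kb in the Control libraries and 2.59, 2.58 and 2.58 kb in the PTN libraries. The deposited FPKM thus correspond to a shorter length for the gene in Control than in PTN libraries. Slc43a1 showed the same, with 2.35, 2.00 and 2.23 kb in Control and 2.95, 3.10 and 2.85 kb in PTN libraries. Its log2 fold change was 0.76 in counts (edgeR adjusted p = 0.12) but 0.29 by FPKM. Log2 fold changes from counts and from log2(FPKM + 0.1) differed by more than 0.2 in 7 of the 38 tested members, the others being Slc6a13, Slc7a4, Slc7a14, Slc17a7 and Slc43a2. The added 0.1 by itself makes changes of low genes such as Slc17a7 look smaller.

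Slc36 genes encode proton-coupled carriers of lysosomes and the cell surface. Slc36a1 was at 36.1, 27.9 and 33.8 CPM in Control and 25.9, 26.5 and 35.1 CPM in PTN libraries (edgeR log2 fold change -0.16 ± 0.18 SE, adjusted p = 0.571). Slc36a4 was at 12.8, 16.5 and 17.2 CPM in Control and 22.2, 17.3 and 19.3 CPM in PTN libraries, just without overlap (edgeR adjusted p = 0.26). Slc36a2 had 2 to 9 counts and Slc36a3 none.

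Vesicular carriers were near the detection limit. Slc17a7, a vesicular glutamate carrier of excitatory neurons, had 5, 3 and 5 counts in Control and 12, 24 and 14 counts in PTN libraries, or 0.211, 0.115 and 0.234 against 0.466, 1.07 and 0.728 CPM. It passed the filter through its PTN counts alone, so that among genes this low only one that differs could be tested, and its call is no support for a change in the family. The fold was 3.99 with an edgeR adjusted p = 0.0499, and the adjusted p was 0.0501 to 0.173 in the 11 other settings tried with all 6 libraries and the same threshold. It was 0.0593 to 0.159 when PTN 1, PTN 2 or any Control library was left out. Slc32a1, which loads GABA and glycine, had 2, 1 and 2 counts in Control and 0 in each PTN library, and both groups are too low for a fold. Slc17a8 had 0 to 4 counts and Slc17a6 none.

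Enzymes that make or use glutamate and GABA were followed from a list of 16 genes, all tested, of which 3 fell and 1 rose. Over all tested genes 3.06% fell and 4.93% rose. Glul, the glutamine synthetase of astrocytes, was at 1391, 1240 and 1220 CPM in Control and 473, 807 and 636 CPM in PTN libraries, a fall of 2.01-fold (edgeR adjusted p = 0.0229). Prodh, which starts proline breakdown, fell 2.83-fold (edgeR adjusted p = 0.0137), and Gls2, a glutaminase, fell 2.66-fold from 2.79, 1.99 and 2.15 CPM to 0.698, 1.11 and 0.78 CPM (edgeR adjusted p = 0.036). Gad1, which makes GABA, rose 2.28-fold, from 1.44, 1.57 and 2.34 CPM to 3.96, 4.32 and 3.90 CPM (edgeR adjusted p = 0.0342). By the deposited FPKM the groups overlapped for Gad1, at 0.51, 0.58 and 1.73 in Control and 1.22, 1.43 and 1.18 in PTN libraries. The median log2 fold change of the list was -0.33, against 0.03 over all genes. Glul and Gls2 were not called when PTN 1 or any Control library was left out (edgeR adjusted p from 0.0504 to 0.138), nor was Gad1 without any library but PTN 3 (0.0596 to 0.145) or Prodh without Control 1 (0.0637).

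Of 16 tested genes between cystine and glutathione 0 were called by edgeR, against 7.99% of all tested genes. An unadjusted p under 0.05 was seen for 5, and DESeq2 called 1 higher (Gclc) and 1 lower (Ggt7). The smallest edgeR adjusted p there was that of Ggt7, a glutamyl transferase family gene, at 0.0636 for a log2 fold change of -0.78.

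In the amino acid stress response 3 of 19 tested genes rose and 3 fell, where 4.93% of all tested genes rose and 3.06% fell. Vldlr, a lipoprotein receptor, and Nupr1, a stress-induced chromatin protein, rose 2.27-fold and 2.38-fold (edgeR adjusted p = 0.00992 and 0.0276), as did the transcription factor gene Ddit3. Ddit4, an mTORC1 inhibitor, and Psph, which completes serine synthesis, fell 1.91-fold and 1.79-fold (edgeR adjusted p = 0.0102 and 0.0121), as did the serine synthesis gene Phgdh. Of 29 tested genes of amino acid sensing and mTORC1, 1 fell and 1 rose, near the 7.99% called over all tested genes. Castor1, the cytosolic arginine sensor, fell 3.26-fold, from 6.93, 5.39 and 5.85 CPM to 1.67, 1.83 and 2.08 CPM (edgeR adjusted p = 0.00545). Fnip2, a folliculin partner, rose 1.58-fold (edgeR adjusted p = 0.0449). Without PTN 1 or any Control library Fnip2 and Nupr1 were not called (edgeR adjusted p from 0.0636 to 0.173), nor was Psph without Control 3 (0.0581).

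Marker levels by library are given beside the transporter genes because several of these are known astrocyte genes. Relative to the Control mean, on the log2 scale, the astrocyte marker sum was -1.32, -0.11 and -0.97 in PTN 1, PTN 2 and PTN 3. Slc6a9 stood at -1.48, -0.22 and -0.87 and Slc1a2 at -1.29, -0.19 and -1.29, each with PTN 2 near Control. Slc1a3, the most abundant glial carrier gene, did not go with the astrocyte sum. It was not called, but was at 2059, 2217 and 2172 CPM in the PTN libraries against 1482 to 1762 CPM in Control. The neural stem and progenitor sum too was above every Control library in each PTN library. Slc6a11 was at -1.92, -1.03 and -1.27, Slc38a3 at -2.17, -1.35 and -1.42 and Slc6a13 at -2.58, -2.38 and -2.74, so that these were well below Control in PTN 2 as well. These genes were called with all libraries, which a PTN 2 value near Control works against. Their contrast with Slc1a2 and Slc6a9, which were not called, is thus partly set by the calls, and what lies behind it was not tested. Of the 12 astrocyte markers 3 fell (Gfap, Aldoc and Gjb6) and 0 rose by edgeR, with 5 lower and 1 higher at an unadjusted p under 0.05. DESeq2 called 5 lower, adding Fgfr3 and Ndrg2, and 0 higher. Gfap and Gjb6 were not called without PTN 1 or any Control library (edgeR adjusted p from 0.0747 to 0.128), and their falls of 4.49-fold and 8.40-fold were 9.67-fold and 29.8-fold without PTN 2. The neural stem and progenitor sum was 0.51, 0.32 and 0.39 and the neuron sum 0.83, 0.56 and 0.11 in the same order. Of the 12 neural stem and progenitor markers edgeR called 2 higher and 1 lower, and DESeq2 2 higher and 2 lower. Of the 12 neuron markers edgeR called 2 higher and 0 lower. Over all tested genes edgeR called 4.93% higher and 3.06% lower. The part of these cell types in the transporter values was not tested.

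**Figure D4:**
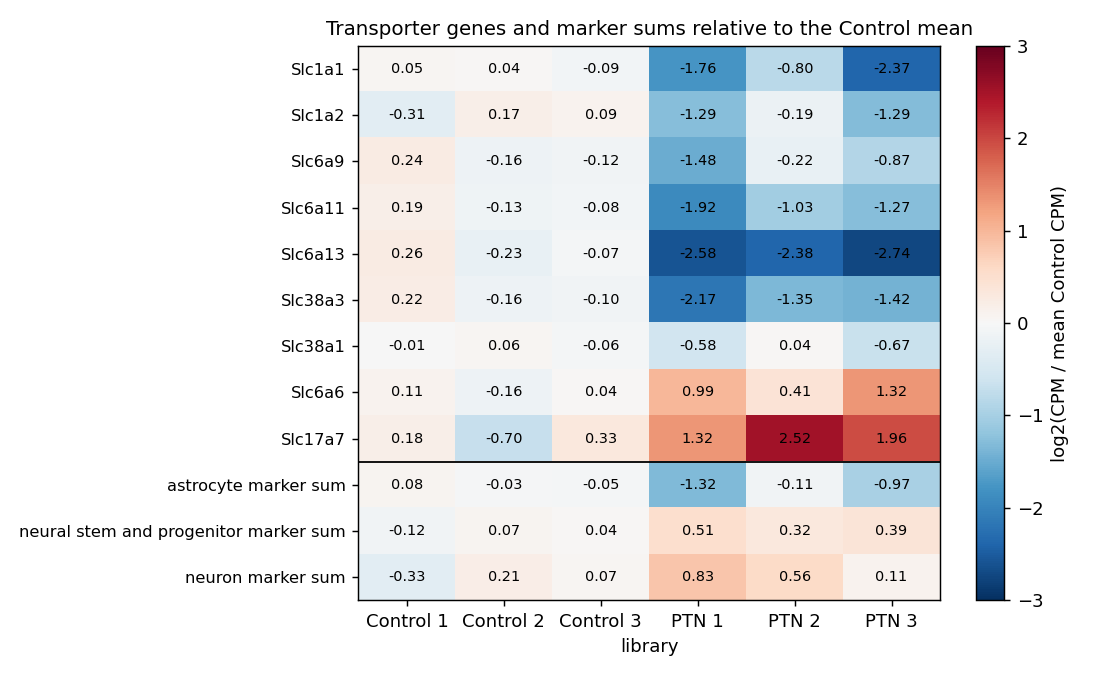
Log2 of each library's CPM over the mean of the 3 Control libraries, for 9 transporter genes (above the line) and the summed CPM of 3 marker lists (below it). In the PTN 2 column, Slc1a2, Slc6a9, Slc38a1 and the astrocyte sum lie between -0.22 and 0.04, while Slc6a11, Slc6a13 and Slc38a3 lie at -1.03 or lower. The latter genes were called and the former were not, and the calls rest on these same values.

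Among the 6 called members, PTN 2 was the PTN library nearest to the Control mean in 5, the exception being Slc17a7. Over all 38 tested members the nearest library was PTN 1 in 13, PTN 2 in 14 and PTN 3 in 11.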

How the data were processed

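RNA-seq of 6 libraries was used, 3 PTN and 3 Control. Per the labels' protocols, libraries were made with a SMARTER mRNA kit from column-purified RNA. The sources used here name no aligner, counting tool, build or annotation. The authors deposited an expected count (an estimate per gene, not scaled between libraries) and an FPKM value (scaled by gene length and library depth, to 2 decimals) for each of 22322 genes. Columns were matched to titles by first letter and replicate number.

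Expected counts were rounded, and genes kept by edgeR's filterByExpr (13161, or 59%). Libraries were scaled by TMM and compared with edgeR's quasi-likelihood test (edgeR 4.0.16 in R 4.3.3). The contrast was PTN minus Control, with Benjamini-Hochberg adjustment over all tested genes and calls under 0.05. The standard error is the log2 fold change divided by the square root of F. CPM values are TMM-scaled, and 1 CPM is about 19 to 26 counts. The test was tested on simulated data.

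Alternatives were other scalings and filters, DESeq2 (1.42.0), limma (3.58.1) by voom and on log2(FPKM + 0.1) and log2(FPKM + 1), the replicate number as a block, a length trend removed, calls under 0.1, and each library left out in turn. Values by library are given for called members, the most abundant of each family and a set list, some of which are not reported here, and of each other pathway list up to 4 called genes. The members and lists were chosen with earlier results of these data known. Promoter windows of 300 bases, RefSeq on GRCm38.p6, were matched by symbol for 49 of the 67 members. Of each, only the 250 bases before the start are printed.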

Additional observations from a re-analysis of the deposited data

How the results depend on the processing

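The number of all genes called was 1052, but 1908 with DESeq2's Wald test and 1913 at an adjusted p under 0.1, and 334 to 2210 without 1 library, the highest without PTN 3. Such refits lose a residual degree of freedom. Members called higher numbered 2, but 1 with DESeq2 size factors, upper-quartile scaling, library totals, no filter, a count of 10 in 3 libraries, 1 CPM in 3 libraries, DESeq2's Wald test, limma-voom, limma on either FPKM scale or the replicate block, the one lost being Slc17a7. It was 0 with the length trend removed, and 0 to 2 without 1 library. Members called lower numbered 4, and 3 to 7 without 1 library, the 7 without PTN 2 adding Slc1a2, Slc6a9 and Slc38a1. Slc6a11, Slc6a13 and Slc38a3 were called lower under every setting tried. Of the log2 fold changes not called, Slc38a9 was -0.0309 with upper-quartile scaling, -0.0631 and -0.0353 by FPKM with 0.1 and 1 added, -0.31 with the length trend removed and -0.11 to 0.17 without 1 library. With the length trend removed, Slc6a8, Slc7a1, Slc7a11 and Slc38a2 were at -0.0134, -0.0789, -0.12 and -0.0498. Without 1 library Slc3a2 ranged over -0.12 to 0.26 and Slc6a8 over -0.0103 to 0.15. The cause was not tested. The median log2 fold change of all genes rose with gene length, from -0.24 in the shortest eighth to 0.31 in the longest.

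The labels do not say whether equal replicate numbers mark a shared culture. Deviations of same-numbered libraries from their group means correlated across genes at -0.51, 0.36 and -0.0049. Control 1 and Control 3 correlated best with another number, and Control 2 with its own. Deviations within a group of 3 cancel out and so depend on each other, and these correlations cannot decide whether libraries were paired. With the replicate block 726 genes were called, and 1 member higher and 4 lower. Slc6a11, Slc6a13, Slc38a3, Slc1a1 and Slc6a6 were called in it. Members below 1 CPM rest on under 26 counts.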
